A study of Homo sapiens with 10 samples.

Results

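BRD2 and BRD3, which encode bromodomain proteins of the BET family, and GSPT1, CSNK1A1 and ZFP91, which encode proteins known to be brought to the ubiquitin ligase receptor CRBN by small molecules, are common targets of degrader drugs. They were taken by symbol from a table of 20030 genes, and all 5 were found and passed the filter that left 10477 genes to test. RNA was sequenced from Huh7, PLC and 97H, which are 3 lines grown from human liver cancer. The groups were control (vehicle; Huh7, PLC and 97H), a CDK4/6 inhibitor given no name in the labels (Huh7, PLC and 97H), the XPO1 inhibitor KPT330 (PLC and 97H) and the 2 drugs together (PLC and 97H). There were thus 10 libraries, 1 for each line and treatment, and the cell line was the replicate of a treatment. The sources used here give no dose, time or number of cultures, so p-values measure only the spread between these libraries.

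BET proteins read acetylated lysines on histones and bring elongation factors to RNA polymerase II. Degraders act on such proteins by joining them to a ubiquitin ligase, often CRBN or VHL, after which the proteasome removes them. In a molecular glue the drug reshapes CRBN itself, so that a protein it would not normally hold (a neosubstrate) is ubiquitinated. GSPT1 is the release factor eRF3a, which works with ETF1 at stop codons. CSNK1A1 is casein kinase 1 alpha, which primes beta-catenin for destruction and is a substrate of CRBN in the presence of lenalidomide. ZFP91 is a zinc finger protein with ubiquitin ligase activity. No degrader was given in this study, which examined transcriptome changes under the 2 inhibitors; the values are RNA levels of the genes, and proteins were not analysed here.

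Values are FPKM, a count of fragments scaled by transcript length and by library size, so that levels can be set side by side between genes. Differences are on the scale of log2(FPKM + 1), which understates the change of genes at low FPKM. They were tested with limma, with cell line in the model, and a gene was called at a Benjamini-Hochberg adjusted p under 0.05 over all 10477 genes. The libraries held 14033 to 15264 genes above 0 FPKM, the fewest in the PLC control. The 10 hepatocyte markers checked summed to 5788 to 7668 FPKM in Huh7, 786 to 1994 FPKM in PLC and 45.8 to 87.6 FPKM in 97H, where 8 of the 10 reached 1 FPKM. ALB (albumin) was at 1062 to 1261 FPKM in Huh7 but at 3.29 to 9.74 FPKM in PLC and 2.32 to 15.8 FPKM in 97H. The leukocyte marker PTPRC reached at most 0.0226 FPKM, but other markers of other cell types were well expressed. The 13 checked summed to 481 to 643 FPKM in Huh7, 36.3 to 138 FPKM in PLC and 485 to 787 FPKM in 97H. Among them KRT19 reached 634 FPKM, CD68 127 FPKM, EPCAM 42.6 FPKM and LUM 40.8 FPKM. In bulk libraries, fewer cells that hold an RNA and less of it per cell cannot be told apart.

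Among the 5 genes, CSNK1A1 and ZFP91 had the highest ratios of highest to lowest FPKM within the PLC line (2.49 and 3.15), and both were lowest in its control, so the sequences around their starts are shown. Each runs from 250 bases before to 50 bases after the start, from RefSeq on GRCh38.p14: chr11:58578813-58579112 on the plus strand for ZFP91 and chr5:149551390-149551689 on the minus strand for the first of the 2 CSNK1A1 starts listed. Capitals mark matches, on either strand, to 4 motifs, which may adjoin or overlap. These are the GC box, whose letters are GGGCGG and which Sp1 factors bind. They are also the CCAAT box, named for its letters, and the core that ETS factors bind, searched as CCGGAAGT. The last is part of the site of the factor NRF1, searched as TGCGCA.
ZFP91: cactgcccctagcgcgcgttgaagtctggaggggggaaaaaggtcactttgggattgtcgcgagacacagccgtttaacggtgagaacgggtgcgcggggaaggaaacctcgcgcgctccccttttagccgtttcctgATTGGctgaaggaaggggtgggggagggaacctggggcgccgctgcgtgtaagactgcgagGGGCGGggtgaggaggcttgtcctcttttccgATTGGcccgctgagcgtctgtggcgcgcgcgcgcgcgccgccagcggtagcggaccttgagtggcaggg
CSNK1A1: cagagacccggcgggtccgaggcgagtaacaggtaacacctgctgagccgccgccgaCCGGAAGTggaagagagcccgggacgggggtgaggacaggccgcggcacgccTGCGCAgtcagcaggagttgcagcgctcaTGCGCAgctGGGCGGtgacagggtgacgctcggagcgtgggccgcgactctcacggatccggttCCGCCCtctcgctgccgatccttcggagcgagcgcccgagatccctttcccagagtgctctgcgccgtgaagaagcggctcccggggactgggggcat
The ZFP91 sequence holds 1 GC box and 2 CCAAT boxes, and the CSNK1A1 sequence holds 2 GC boxes, 1 ETS core and 2 NRF1 motifs. Of 35116 such windows in the table, 44.95% hold a GC box, 34.6% a CCAAT box, 8.24% the NRF1 motif and 4.14% an ETS core. The 2 windows shared the GC box and none of the 3 other motifs. Neither held the other motifs searched. These were the TATA box (TATAAA, in 11.5% of windows), the core bound by YY1 (AAGATGGC, in 2.89%), the site of CREB factors (TGACGTCA, in 1.85%), the E-box of MYC and related factors (CACGTG, in 7.26%) and the full palindrome of NRF1 (in 1.24%). Their GC contents were 65.3% for ZFP91 and 69.7% for CSNK1A1, beside a median of 58.7% over all windows. The window of the other CSNK1A1 start, not printed here, differs from the one shown. It holds 1 CCAAT box, 1 TATA box and no GC box, ETS core or NRF1 motif. A match is a string of letters and not a bound site.

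BRD2, the more abundant BET gene of the pair, lies on chromosome 6 from 32968660 to 32981505 in GRCh38 (GENCODE 29). It was at 23.1 FPKM in the Huh7 control and 19.4 FPKM with the CDK4/6 inhibitor. In PLC it was at 35.5 FPKM in the control, 34.0 FPKM under CDK4/6 inhibition, 42.4 FPKM under XPO1 inhibition and 52.6 FPKM under both. The same 4 treatments gave 42.1, 44.3, 49.9 and 36.4 FPKM in 97H. The Huh7 libraries thus lay below every PLC and 97H library, and the combination gave the highest BRD2 value in PLC but the lowest in 97H.

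BRD3, a second BET gene, lies on chromosome 9 from 134030305 to 134068535. Its levels were 13.2 FPKM in the Huh7 control and 15.6 FPKM with the CDK4/6 inhibitor. In PLC they were 4.11 FPKM in the control, 3.61 FPKM under CDK4/6 inhibition, 6.19 FPKM under XPO1 inhibition and 4.93 FPKM under both. In 97H the values in that order were 4.48, 4.55, 6.06 and 5.28 FPKM. The XPO1 inhibitor library had the highest BRD3 value in each of PLC and 97H, and Huh7 lay above all libraries of the other lines. BRD2 was 1.25 to 1.74 times as abundant as BRD3 in Huh7 and 6.84 to 10.7 times as abundant in PLC and 97H. BRD3OS, on the opposite strand, shares 18.6% of the exonic bases of BRD3, and strand use in the counting is not stated, so reads of the overlap cannot be assigned with certainty. BRD3OS itself was at 8.42 to 12.3 FPKM in Huh7 and 7.75 to 11.004 FPKM in the other lines, ranges that overlap.

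GSPT1, on chromosome 16 from 11868128 to 11916082, was the most abundant of the 5 in both Huh7 libraries, at 36.8 FPKM in the control and 27.4 FPKM with the CDK4/6 inhibitor. In PLC it was at 39.9 FPKM in the control, 50.7 FPKM under CDK4/6 inhibition, 64.5 FPKM under XPO1 inhibition and 53.6 FPKM under both. In 97H it was at 51.2, 32.7, 41.7 and 28.8 FPKM. In PLC the control was thus the lowest of the 4 libraries and in 97H it was the highest.

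CSNK1A1, on chromosome 5 from 149492197 to 149551552, was at 20.01 FPKM in the Huh7 control and 19.6 FPKM with the CDK4/6 inhibitor. In PLC it was at 10.6 FPKM in the control, 24.9 FPKM under CDK4/6 inhibition, 26.4 FPKM under XPO1 inhibition and 19.2 FPKM under both. The 97H values in the same order were 20.6, 11.4, 16.7 and 21.3 FPKM. The PLC control was the lowest of all 10 libraries, and in 97H the control and the combination were close. A second gene model on the same strand, AC021078.1, shares 37.4% of the exonic bases of CSNK1A1.

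ZFP91, on chromosome 11 from 58579111 to 58621042, was at 15.6 FPKM in the Huh7 control and 11.3 FPKM with the CDK4/6 inhibitor. In PLC it was at 9.80 FPKM in the control, 26.8 FPKM under CDK4/6 inhibition, 30.9 FPKM under XPO1 inhibition and 24.0 FPKM under both. In 97H it was at 26.3, 11.5, 17.9 and 12.6 FPKM. Every treated PLC library was thus at least 2.45 times its control, while the treated 97H libraries were at 0.436 to 0.683 of theirs. The read-through gene ZFP91-CNTF shares 32.3% of the exonic bases of ZFP91.

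**Figure D1:**
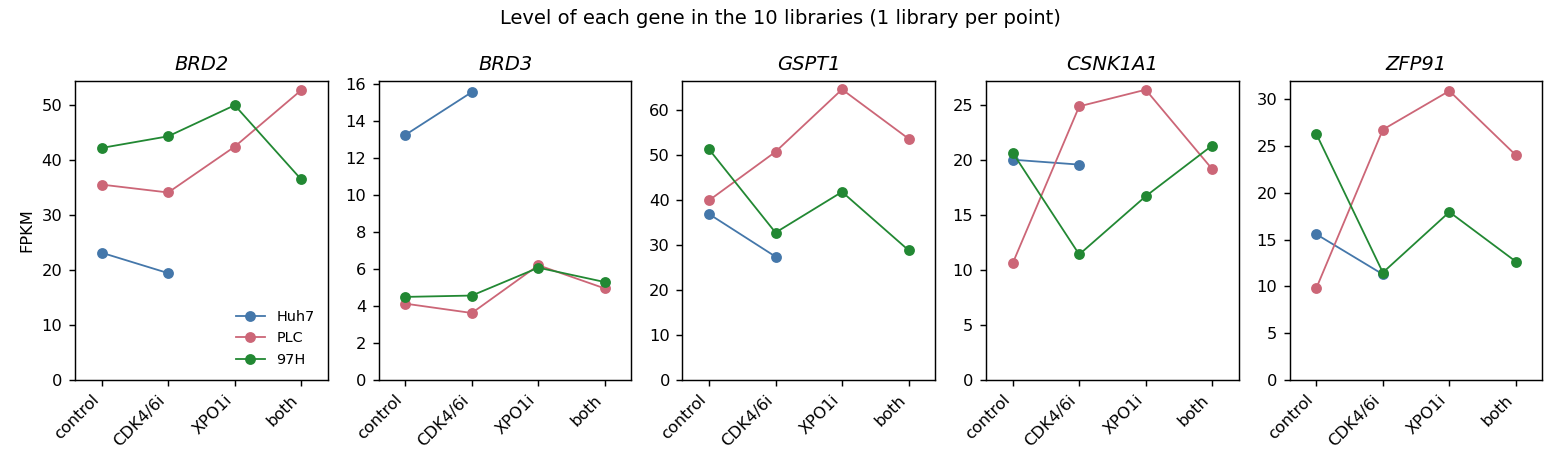
FPKM (vertical axis, from 0) of BRD2, BRD3, GSPT1, CSNK1A1 and ZFP91 in the 10 libraries, by treatment (horizontal axis; CDK4/6i, CDK4/6 inhibitor; XPO1i, XPO1 inhibitor; both, the combination) and cell line (colours); each point is 1 library and lines join libraries of 1 cell line. Huh7 lies lowest for BRD2 and highest for BRD3, and the PLC and 97H traces of ZFP91 run in opposite directions from their controls.

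BRD3 was called in Huh7 against both other lines, and BRD2 against 97H but not against PLC. Each line has 1 library per treatment, and libraries of 1 line share their source. The p-values of line comparisons thus measure only how treatment differences vary between lines. The SDs are over libraries under different treatments, and not over replicates of a line. BRD3 averaged 14.4 ± 1.64 FPKM (SD, n = 2 libraries) in Huh7, 4.71 ± 1.13 FPKM (SD, n = 4) in PLC and 5.09 ± 0.739 FPKM (SD, n = 4) in 97H, so the Huh7 mean was 3.06 times that of PLC and 2.83 times that of 97H. In the model with treatment as covariate BRD3 was higher in Huh7 than in PLC by a log2 difference of 1.62 (SE 0.29, limma adjusted p = 0.00217) and by 1.52 than in 97H (SE 0.29, adjusted p = 0.00255). BRD2 averaged 21.2 ± 2.62 FPKM in Huh7 (SD, n = 2), 41.1 ± 8.49 FPKM in PLC and 43.2 ± 5.58 FPKM in 97H (SD, n = 4 each). It was lower in Huh7 than in 97H, with a log2 difference of -0.88 (SE 0.27, adjusted p = 0.0308). Against PLC the BRD2 difference of -0.80 (SE 0.27, adjusted p = 0.0531) did not pass. Huh7 against PLC thus called 1 of the 5 genes, where 28.3% of all tested genes were called, and Huh7 against 97H called 2 of 5, where 35.2% were; neither share says more of these genes than of the table as a whole. Genes higher in Huh7 made up 13.4% of all tested genes against PLC and 20.1% against 97H, and genes lower in Huh7 14.9% and 15.1%. The FPKM ranges of BRD2 and BRD3 in Huh7 overlapped with neither other line, which held for 45.6% of all tested genes against PLC and 57.8% against 97H. This was not particular to the BET genes, since GSPT1 in Huh7 (27.4 to 36.8 FPKM) did not overlap with PLC (39.9 to 64.5 FPKM) either. Hepatocyte markers also moved with the lines, as given above, and their part in these differences was not tested. Without the Huh7 CDK4/6 inhibitor library, which leaves Huh7 with 1 library assumed to vary like the others, the BRD3 difference was 1.48 against PLC (adjusted p = 0.0851) and 1.38 against 97H (adjusted p = 0.0842). BRD2 against 97H lost its call in 6 of the 10 fits that left out 1 library, with differences from -1.01 to -0.73 over the 10. The background counts also rest on the 2 Huh7 libraries. Against PLC 2970 of all tested genes were called, but 1398 without the Huh7 control and 1178 without the Huh7 CDK4/6 inhibitor library. Against 97H 3689 were called, but 1756 and 1773 without these libraries and 2415 without the 97H CDK4/6 inhibitor library.

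PLC and 97H did not differ by a called amount in any of the 5 genes, where 49.3% of all tested genes were called (31.1% higher and 18.1% lower in PLC). Their FPKM ranges in the 2 lines all overlapped, while those of 43.6% of all tested genes did not. The differences, PLC minus 97H, were -0.08 for BRD2 (95% interval -0.54 to 0.38), -0.11 for BRD3 (-0.59 to 0.38), 0.44 for GSPT1 (-0.07 to 0.95), 0.16 for CSNK1A1 (-0.52 to 0.84) and 0.36 for ZFP91 (-0.47 to 1.197). The median over all tested genes in that comparison was 0.26, so BRD2, BRD3 and CSNK1A1 lay below it. CSNK1A1 went to -0.15 under median ratio scaling and -0.26 with the trends on GC content and transcript length removed. Leaving out the PLC control brought GSPT1 to 0.68 (adjusted p = 0.00857) and ZFP91 to 0.87 (adjusted p = 0.00484). Without the 97H control GSPT1 was at 0.63 (adjusted p = 0.0371).

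GSPT1 averaged 52.2 ± 10.1 FPKM in PLC and 38.6 ± 10.004 FPKM in 97H (SD, n = 4 each), above 32.1 ± 6.70 FPKM in Huh7 (SD, n = 2), and neighbours in this order did not differ by a called amount. In Huh7 it stood at -0.64 against PLC (SE 0.30, adjusted p = 0.147) and at -0.20 against 97H (SE 0.30, adjusted p = 0.632). With the trends on GC content and transcript length removed, GSPT1 in Huh7 was at -0.79 against PLC (adjusted p = 0.0239) and at -0.72 against 97H (adjusted p = 0.0313), and BRD2 against PLC was at -0.86 (adjusted p = 0.00912). GSPT2, the paralogue of GSPT1 whose product also binds ETF1, showed a wider gap and is named after its values were seen. GSPT2 was at 0.0466 FPKM in the Huh7 control and 0.0692 FPKM with the CDK4/6 inhibitor, but at 8.43 to 14.5 FPKM in PLC and 6.58 to 9.78 FPKM in 97H. It was lower in Huh7 than in PLC by a log2 difference of -3.45 (SE 0.34, adjusted p = 5.39e-05) and than in 97H by -3.11 (SE 0.34, adjusted p = 7.81e-05). GSPT2 made up 0.126% to 0.252% of the summed GSPT1 and GSPT2 FPKM in Huh7 and 14.1% to 23.5% in the other lines.

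CSNK1A1 averaged 19.8 ± 0.317 FPKM in Huh7 (SD, n = 2), 20.2 ± 7.15 FPKM in PLC and 17.5 ± 4.56 FPKM in 97H (SD, n = 4 each). ZFP91 averaged 22.9 ± 9.16 FPKM in PLC, 17.1 ± 6.76 FPKM in 97H (SD, n = 4 each) and 13.4 ± 3.03 FPKM in Huh7 (SD, n = 2), and the ranges of every pair of lines overlapped. Huh7 against PLC gave 0.22 for CSNK1A1 (SE 0.40, adjusted p = 0.727) and -0.51 for ZFP91 (SE 0.49, adjusted p = 0.493). Without the PLC control the ZFP91 difference was -1.28 (adjusted p = 0.00668) and that of GSPT1 was -1.003 (adjusted p = 0.0107), and BRD2 passed as well (-0.90, adjusted p = 0.0364).

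Of the 5 genes none was called in any comparison of treatments. The percentage of all tested genes called was 0 for the CDK4/6 inhibitor against control, 0 for the XPO1 inhibitor against control and 0.792 for the combination against control (0.305 higher and 0.487 lower), so no member being called is what the table as a whole would give. At an unadjusted p under 0.05 there were 922, 258 and 1301 genes in these comparisons and 0 of the 5 members in each. No other count tool was run, since the table holds no counts.

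With the combination, the fitted differences from control over PLC and 97H (n = 2 lines) were small beside their errors. BRD2 was at 0.18 (SE 0.31, 95% interval -0.53 to 0.89, limma adjusted p = 0.892). BRD3 was at 0.21 (SE 0.38, interval -0.65 to 1.06, adjusted p = 0.895). GSPT1 was at -0.20 (SE 0.34, interval -0.98 to 0.59, adjusted p = 0.891). The BRD2 and BRD3 intervals reach further above 0 than below it, and that of GSPT1 further below. CSNK1A1 was at 0.42 (SE 0.47, interval -0.64 to 1.48, adjusted p = 0.814) and ZFP91 at 0.11 (SE 0.56, interval -1.16 to 1.37, adjusted p = 0.974). Either control library decided the ZFP91 value, which was -1.03 without the PLC control and 1.24 without the 97H control; CSNK1A1 was at -0.29 and 1.13. For comparison, 6 of 10 proliferation genes, BIRC5 and PLK1 among them, fell in the same fit, where 0.487% of all tested genes were called lower. These calls too were lost under the settings in which no gene of the table passed: no filter on low genes, no cell line term, and either of 2 PLC libraries (control, combination) left out. Of 13 markers of other cell types (immune, endothelial, fibroblast and biliary) 7 were tested and none was called, with a median of 1.10; their part in the members' values was not tested.

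With the XPO1 inhibitor alone all 5 estimates lay above 0, from 0.20 for GSPT1 (SE 0.34) to 0.52 for ZFP91 (SE 0.56), with a median of 0.43 beside 0.10 over all tested genes and an adjusted p of 0.968 for each. BRD3 was at 0.43 (SE 0.38), with 0.49 in PLC and 0.37 in 97H. The estimates for CSNK1A1 (0.47, SE 0.47), ZFP91 and GSPT1 averaged lines of opposite sign, with GSPT1 at 0.68 in PLC and -0.29 in 97H. Without the PLC control they were -0.23 for CSNK1A1, -0.61 for ZFP91 and -0.33 for GSPT1.

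With the CDK4/6 inhibitor alone (n = 3 lines) the estimates ran from -0.24 for GSPT1 (SE 0.26, adjusted p = 0.871) to 0.11 for CSNK1A1 (SE 0.35, adjusted p = 0.963), with BRD2 at -0.08, BRD3 at 0.03 and ZFP91 at -0.07. In Huh7, the line without XPO1 inhibitor libraries, the treated library stood at -0.24 for BRD2, 0.22 for BRD3, -0.42 for GSPT1, -0.03 for CSNK1A1 and -0.43 for ZFP91 against its control. For ZFP91 the lines thus lay at -0.43, 1.36 and -1.13 (Huh7, PLC and 97H).

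Set against the single drugs, the combination differed by no called amount for any of the 5, with 0% of all tested genes called in each. Against the CDK4/6 inhibitor the estimates ran from -0.05 for GSPT1 (SE 0.34) to 0.27 for BRD3 (SE 0.38), at an adjusted p of 1 for each. Against the XPO1 inhibitor all 5 lay below 0, from -0.05 for CSNK1A1 (SE 0.47) to -0.41 for ZFP91 (SE 0.56), also at an adjusted p of 1. These comparisons share libraries with those against control and are not separate evidence. The interaction, which asks whether 1 drug acts differently when the other is present, was largest in size for ZFP91 at -0.53 (SE 0.79, limma adjusted p = 0.999949) and 0% of all tested genes were called.

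**Figure D2:**
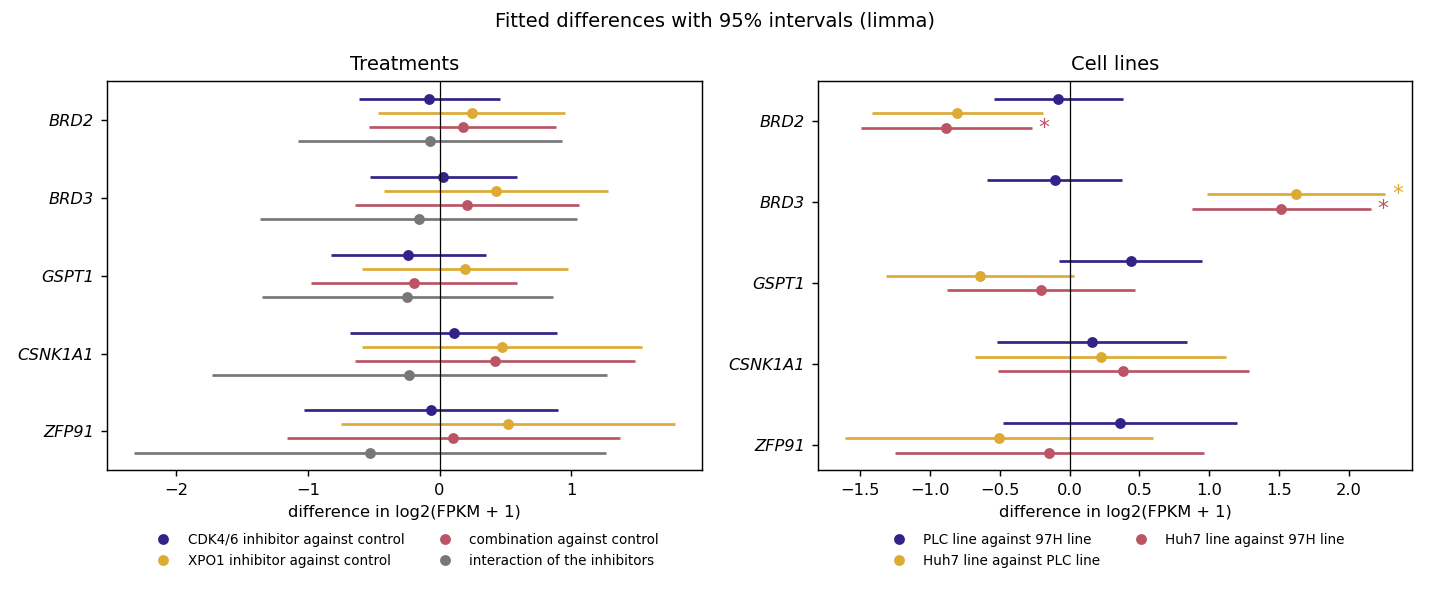
Fitted differences in log2(FPKM + 1) (horizontal axis) of the 5 genes (vertical axis) between treatments (left) and between cell lines (right), with 95% intervals; colours mark the comparison and an asterisk marks an adjusted p under 0.05. All intervals on the left cross 0, and on the right BRD3 is higher in Huh7 than in both other lines while BRD2 is lower in Huh7 than in 97H.

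In the 2 lines that received every treatment, ZFP91 and GSPT1 differed from control in opposite directions, and CSNK1A1 did so with each single drug. Within PLC, ZFP91 stood above control by 1.36 under CDK4/6 inhibition, 1.56 under XPO1 inhibition and 1.21 under both. Within 97H it stood at -1.13, -0.53 and -1.001. The share of all tested genes that differed by more in size than ZFP91 was 10.5%, 4.72% and 12.3% in PLC and 3.82%, 16.8% and 12.6% in 97H, in the same order of treatments. GSPT1 was at 0.34, 0.68 and 0.42 in PLC and at -0.63, -0.29 and -0.81 in 97H. CSNK1A1 was at 1.16, 1.24 and 0.80 in PLC and at -0.80, -0.29 and 0.04 in 97H, the combination being the exception in sign. Each line has 1 control, which the 3 differences share, and the difference between lines was not tested.

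The direction seen for ZFP91 and GSPT1, up in PLC and down in 97H with all 3 treatments, was shared by 17.8% of all tested genes, and by 35.8% of the 3359 tested genes with a transcript GC content under 45%. The transcripts of GSPT1, CSNK1A1 and ZFP91 have GC contents of 40.9%, 39.4% and 44.7%, whereas those of BRD2 and BRD3 have 54.99% and 52.3% (longest GENCODE 29 transcript). In PLC with the CDK4/6 inhibitor the median difference from control was 0.84 over genes under 45% GC and -0.42 over genes above 55% GC, and in 97H it was -0.54 and 0.31. The Spearman correlation of the difference with GC content, across tested genes, which are not independent replicates, was -0.677, -0.719 and -0.293 in PLC (CDK4/6 inhibitor, XPO1 inhibitor, both), and 0.724, 0.465 and 0.255 in 97H. Within their line, the PLC control had the lowest level of low-GC genes and the 97H control the highest, with median deviations of -0.50 and 0.22 on the log2 scale. Values with this trend and that on transcript length removed are given next, as another setting. The removal also takes out any line or treatment effect that goes with GC content or length. The part of the trend in the values of single genes was therefore not tested.

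After a smooth trend on GC content and on transcript length had been removed from each library, ZFP91 stood at 0.56, 0.79 and 0.62 in PLC and at -0.72, -0.40 and -0.81 in 97H. It thus kept its direction in all 6 treated libraries, a pattern then found in 8.62% of all tested genes, and GSPT1 no longer had it. GSPT1 went to -0.66, -0.23 and -0.10 in PLC and to -0.09, -0.05 and -0.65 in 97H, below control in all 6. The share of all tested genes below control in all 6 was not counted, and the values of a line share its control. CSNK1A1 went to 0.17, 0.35 and 0.39 in PLC and to -0.25, -0.03 and 0.16 in 97H. BRD2, with the combination, was at 0.48 in PLC and -0.24 in 97H after removal, beside 0.56 and -0.21 before. In the fit over lines none of the 5 passed in the treatment comparisons after removal either, the combination against control giving -0.38 for GSPT1 (SE 0.27, adjusted p = 0.446), 0.28 for CSNK1A1 (SE 0.21, adjusted p = 0.470) and -0.10 for ZFP91 (SE 0.34, adjusted p = 0.899).

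**Figure D3:**
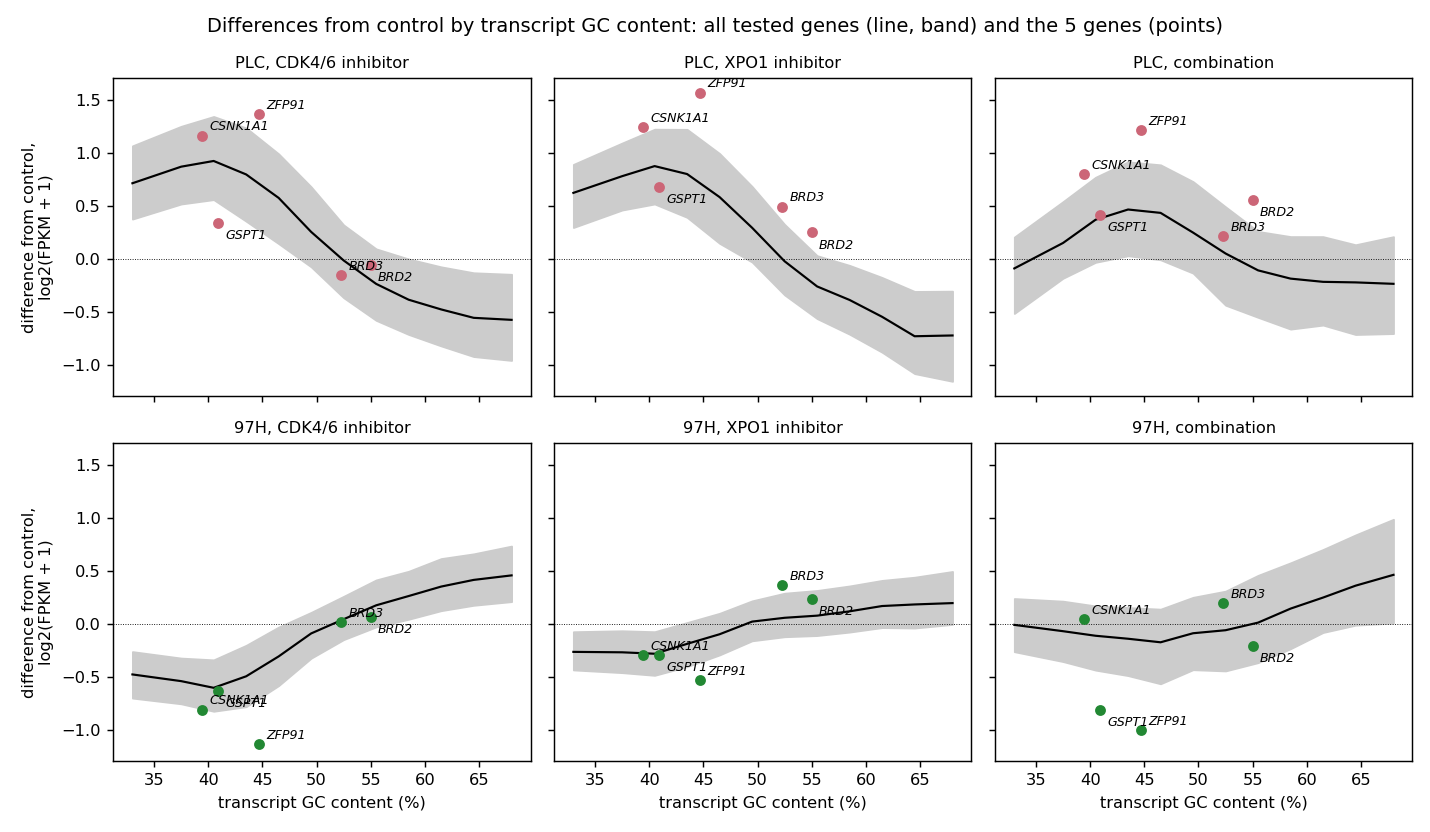
Difference from the control of the same line in log2(FPKM + 1) (vertical axis) against transcript GC content in percent (horizontal axis), for each treatment in PLC (top) and 97H (bottom). The black line is the median and the grey band the range between the quartiles of all tested genes in bins of GC content; the labelled points are the 5 genes, ZFP91 lying above the band in all PLC panels and below it in all 97H panels.

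**Figure D4:**
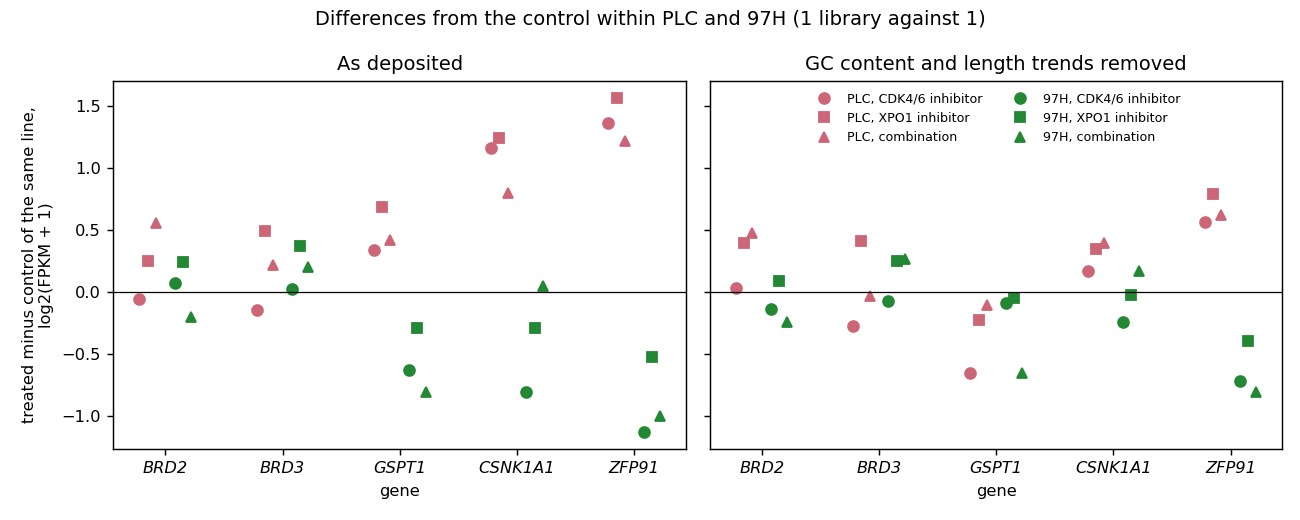
Difference from the control of the same line in log2(FPKM + 1) (vertical axis) for each of the 5 genes (horizontal axis) in PLC and 97H (colours) with each treatment (symbols), as deposited (left) and after removal of trends on GC content and length (right); each symbol sets 1 library against 1. On the right only ZFP91 has all 3 PLC symbols above 0 and all 3 97H symbols below 0.

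The genes whose pattern was most like each of the 5 were taken by the Pearson r of log2(FPKM + 1), as deviations from the mean of the line, over the 10 libraries; the points of a line share its mean. For BRD2 they were ALKBH1, NHSL1 and RNF214 (r of 0.962, 0.960 and 0.948), and for BRD3 they were GDF15, ELF3 and PTCH1 (0.969, 0.948 and 0.928). For GSPT1 they were GART, RPL7L1 and UGDH (0.985, 0.981 and 0.976). For CSNK1A1 they were AAGAB, EPC1 and TAOK3 (0.996, 0.991 and 0.990), and for ZFP91 they were FBXW2, BRD8 and DR1 (0.998, 0.998 and 0.995). An r over 0.9 was reached by 13 genes for BRD2 and 6 for BRD3, but by 113 for GSPT1, 672 for CSNK1A1 and 391 for ZFP91. After removal of the trends on GC content and length these counts were 13, 9, 54, 39 and 51. Between the members, r was 0.894 for GSPT1 with ZFP91 and 0.820 for CSNK1A1 with ZFP91, and 0.264 and 0.357 after removal. As many as 14.7% of all tested genes were more like CSNK1A1 than ZFP91 was before removal. GSPT1 with CSNK1A1 went from 0.527 to -0.385. BRD2 with ZFP91 went the other way, from 0.358 to 0.740, the highest r of the 10 pairs after removal. BRD2 with BRD3 had an r of 0.434, and 0.326 after removal.

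Of the partners of BET proteins in transcription elongation (P-TEFb and its inhibitors, the super elongation complex, NELF and DSIF subunits), 23 of 24 were tested, and none was called with the combination against control. Their median was 0.11 beside 0.07 over all genes. NELFCD, a subunit of the pausing factor NELF, was at -0.60 (SE 0.26, adjusted p = 0.390), with 84.8 FPKM in the control and 50.5 FPKM under both drugs in PLC, and 55.1 and 39.5 FPKM in 97H. NELFE was at -0.36 (adjusted p = 0.656) and AFF4, a scaffold of the super elongation complex, at 0.86 (adjusted p = 0.609).

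In the list of translation termination and nonsense-mediated decay, where GSPT1 acts, 18 of 19 genes were tested and none was called with the combination (median 0.10). ABCE1, which splits the ribosome after termination, was at -0.93 (SE 0.39, adjusted p = 0.370), at 12.5 (control) and 7.84 FPKM (both drugs) in PLC and at 24.5 and 9.70 FPKM in 97H. SMG8 was at 0.61 (adjusted p = 0.622) and SMG6, an endonuclease of that decay, at 0.50 (adjusted p = 0.662).

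Of the casein kinase 1 family and beta-catenin destruction complex, 15 of 20 genes were tested, and 1 fell with the combination while none rose (median -0.05). Over all tested genes 0.487% were called lower and 0.305% higher. In the same fit 6 of 10 proliferation genes were called lower, and their part in the values of this list was not tested. FAM83D, which anchors casein kinase 1 alpha at the mitotic spindle, fell (log2 difference -2.31, SE 0.34, limma adjusted p = 0.0345) and stood at 27.4 (control) and 6.48 FPKM (both drugs) in PLC and at 23.8 and 2.87 FPKM in 97H. FAM83G, another member of that anchor family, was at 0.93 (SE 0.37, adjusted p = 0.336), at 13.7 (control) and 35.9 FPKM (both drugs) in PLC and at 23.4 and 34.5 FPKM in 97H. No gene of the table passed, FAM83D included, with no filter on low genes, with no cell line term, without the PLC control or without the PLC combination library. CSNK1G1 was at 0.97 (SE 0.57, adjusted p = 0.551). Between lines AXIN2, a scaffold of the destruction complex and a target of beta-catenin, was at 9.08 to 17.9 FPKM in 97H against 0.925 to 1.45 FPKM in PLC and 1.06 to 1.11 FPKM in Huh7; it is named after its values were seen.

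Of 22 other reported CRBN neosubstrates 13 were tested and none was called with the combination (median -0.24). The lymphoid factors IKZF1 and IKZF3, targets of lenalidomide in blood cells, reached at most 0.00293 and 0.0526 FPKM. WEE1, a kinase that holds back mitosis, was at 1.02 (SE 0.48, adjusted p = 0.437), at 8.43 (control) and 31.5 FPKM (both drugs) in PLC and at 7.59 and 9.20 FPKM in 97H. PATZ1 was at -0.88 (adjusted p = 0.459) and ZNF787 at -0.63 (adjusted p = 0.521), both zinc finger proteins. SALL4, a fetal zinc finger factor that thalidomide also directs to CRBN, was at 4.45 to 6.15 FPKM in PLC, 0.146 to 0.309 FPKM in Huh7 and at most 0.0967 FPKM in 97H; it is likewise named after its values were seen.

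Among 32 proteins that published degraders address, 29 were tested and none was called with the combination (median -0.02). PARP1, a DNA repair enzyme, was at -1.35 (SE 0.28, adjusted p = 0.0876), at 53.3 (control) and 23.4 FPKM (both drugs) in PLC and at 56.8 and 18.8 FPKM in 97H. STAT3, a transcription factor of cytokine signalling, was at 1.38 (SE 0.36, adjusted p = 0.154), at 15.1 (control) and 61.0 FPKM (both drugs) in PLC and at 18.9 and 34.2 FPKM in 97H. EZH2, the polycomb methyltransferase, was at -0.9998 (SE 0.42, adjusted p = 0.370). Under the same comparison BRD3 (0.22 in PLC and 0.20 in 97H) and CSNK1A1 (0.80 and 0.04) had the same sign in both lines and BRD2, GSPT1 and ZFP91 did not.

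CRBN, the ligase receptor of the neosubstrates, was called lower in 97H than in PLC and Huh7 and is likewise named after its values were seen. It was at 2.16 to 5.53 FPKM in PLC, 3.55 to 4.17 FPKM in Huh7 and 0.578 to 2.06 FPKM in 97H. The PLC level was higher than that of 97H (log2 difference 1.07, SE 0.30, limma adjusted p = 0.0132), though under both drugs they were at 2.16 and 2.06 FPKM. The Huh7 level was also higher than that of 97H (1.32, SE 0.39, limma adjusted p = 0.0250), where 20.1% of all tested genes were called higher. Of 11 CRBN and VHL ligase parts, 5 were called higher in PLC than in 97H and 0 lower. Among all tested genes 31.1% were called higher in PLC and 18.1% lower. None of 11 CRBN and VHL ligase parts was called with the combination (median 0.07), the smallest p being those of ELOB (0.28, adjusted p = 0.748), UBE2D3 (0.30, adjusted p = 0.856) and CUL4A (0.35, adjusted p = 0.861). In every library each of BRD2, GSPT1, CSNK1A1 and ZFP91 had a higher FPKM than CRBN, by the values given.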

How the data were processed

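RNA from 10 cell line libraries was sequenced after Trizol extraction and TruSeq RNA library preparation, per the labels' protocols. The submitters' processing notes list CASAVA 1.8.2, STAR 2.4.2g1, featureCounts and Subread (the last 2 without a version) and the build GRCh38. The deposited values are FPKM computed by the authors; the sources used here do not state how they followed from counts or whether strand was used. The low values did not fall on steps of whole reads (at most 0.779% of them shared 1 ratio between libraries, rounded to 3 decimals), so absolute depth is unknown and no count test was run. Symbols of 27 entries turned into dates were restored from their gene identifiers.

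From the deposited FPKM, differences in log2(FPKM + 1) were fitted with limma 3.58.1 in R 4.3.3 (variance trend on expression, two-sided) for 10477 genes, those averaging 1 FPKM or more over the libraries. The CDK4/6 inhibitor and the lines were compared over all 10 libraries (4 residual degrees of freedom), the rest over the 8 of PLC and 97H (3). Lines were compared with treatment as covariate and treatments with the cell line as replicate block. Pairing comes from the labelled line: control and CDK4/6 inhibitor deviations correlated at 0.901 in Huh7, 0.665 in PLC and 0.818 in 97H. The fit was tested on simulated data with the same noise for every gene and large planted changes. That test checked the code, and not the power at the differences and errors given here. GC content and length came from the longest GENCODE 29 transcript (99.7% of tested genes) and their trends were removed by natural splines of 5 degrees of freedom each. Other alternatives were the pseudocount, the filter, quantile and median ratio scaling, a single prior variance, no block, other library sets, and leaving out each library. Named are all 5 members and the 3 genes most like each member. From each list the 3 genes with the smallest p in the combination against control are named. Others are marked as named after their values were seen, or are given for their levels only, such as ALB and PTPRC. The members and lists were chosen with earlier results of these data known.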

Additional observations from a re-analysis of the deposited data

Results flagged for a closer look

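ZFP91 and GSPT1 moved in opposite directions in the PLC and 97H lines under the same treatments, every treated library of a line lying on 1 side of its control. The mean log2 difference of the 3 treatments from control was 1.38 in PLC and -0.89 in 97H for ZFP91, and 0.48 in PLC and -0.58 in 97H for GSPT1. The difference between the lines was not tested, and the 3 differences of a line share 1 control. The same direction is found in 17.8% of all tested genes and in 35.8% of those under 45% GC. With the trends on GC content and length removed, GSPT1 lay below control in all 6 treated libraries. It was at -0.66, -0.23 and -0.10 in PLC and at -0.09, -0.05 and -0.65 in 97H, and the share of all tested genes with this pattern was not counted. ZFP91 kept its directions, at 0.56, 0.79 and 0.62 in PLC and -0.72, -0.40 and -0.81 in 97H. No test for outlying libraries was run in groups of 2 or 3 libraries, but fits that left out each library are given below. In them the ZFP91 difference with the combination was -1.03 without the PLC control and 1.24 without the 97H control.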

How the results depend on the processing

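No member was called in the 6 treatment comparisons under any alternative or with any 1 library left out. In Huh7 against 97H 2 members were called, and GSPT1 as well with the trends on GC content and length removed (limma adjusted p = 0.0313). In Huh7 against PLC 1 member was called. There were 2 with no replicate block (no treatment term) and 3 with the replicate block and GC content and length trends removed. Leaving out each library in turn gave 0 to 4 members there, 0 to 2 in PLC against 97H and 0 to 2 in Huh7 against 97H. The block changed no other call of a member, but with no replicate block the combination called 0 of all tested genes in place of 83. That count was also 0 without the filter, 27 with a single prior variance, 129 and 141 under median ratio and quantile scaling, 261 with all 10 libraries in the model and 676 with the trends removed. With 1 library left out it was 0 without the PLC control, 0 without the PLC combination, 2 without the 97H combination, 166 without the 97H control, and 158 and 184 without the PLC and 97H CDK4/6 inhibitor libraries. With the trends removed the combination called 56 genes against the CDK4/6 inhibitor and 74 against the XPO1 inhibitor, in place of 0 in each. Huh7 against PLC called 4694 of all tested genes with the trends removed in place of 2970. Median ratio scaling moved the median of all genes by -0.25 in PLC against 97H and -0.21 in Huh7 against 97H. Signs of small, uncalled differences turned as follows. Quantile scaling gave -0.054 for BRD3 with the CDK4/6 inhibitor and 0.041 for BRD3 in the interaction. Median ratio scaling gave 0.0056 for BRD2 and 0.022 for CSNK1A1 in the combination against the XPO1 inhibitor, 0.072 for BRD2 in the interaction and -0.15 for CSNK1A1 in PLC against 97H. Trend removal gave -0.10 for BRD3 with the CDK4/6 inhibitor, -0.14 for GSPT1 with the XPO1 inhibitor, -0.10 for ZFP91 with the combination, 0.12 for CSNK1A1 in the combination against the XPO1 inhibitor, 0.14 for GSPT1 and 0.16 for CSNK1A1 in the interaction, and -0.26 and -0.15 for CSNK1A1 in PLC and Huh7 against 97H. All 10 libraries in the model gave 0.082 for ZFP91 in the combination against the CDK4/6 inhibitor and 0.0080 for BRD2 in the interaction. The cause was not tested. Leaving out 1 library at a time turned signs within these ranges: for CDK4/6 inhibitor against control, -0.21 to 0.00559 for BRD2, -0.0656 to 0.12 for BRD3, -0.56 to 0.0188 for GSPT1, -0.30 to 0.47 for CSNK1A1 and -0.75 to 0.48 for ZFP91. For XPO1 inhibitor against control, -0.33 to 0.72 for GSPT1, -0.23 to 1.18 for CSNK1A1 and -0.61 to 1.65 for ZFP91. For combination against control, -0.22 to 0.58 for BRD2, -0.72 to 0.33 for GSPT1, -0.29 to 1.13 for CSNK1A1 and -1.03 to 1.24 for ZFP91. For combination against CDK4/6 inhibitor, -0.23 to 0.57 for BRD2, -0.34 to 0.24 for GSPT1, -0.36 to 0.84 for CSNK1A1 and -0.54 to 0.52 for ZFP91. For combination against XPO1 inhibitor, -0.47 to 0.33 for BRD2 and -0.37 to 0.26 for CSNK1A1. For interaction of the inhibitors, -0.47 to 0.33 for BRD2, -0.77 to 0.28 for GSPT1, -0.94 to 0.48 for CSNK1A1 and -1.66 to 0.60 for ZFP91. For PLC line against 97H line, -0.28 to 0.0204 for BRD2 and -0.10 to 0.47 for CSNK1A1. For Huh7 line against PLC line, -0.24 to 0.62 for CSNK1A1. For Huh7 line against 97H line, -0.34 to 0.0836 for GSPT1 and -0.42 to 0.48 for ZFP91. With 1 library per line and treatment, and depth unknown, the size of counting error could not be given.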
